A study of Mus musculus with 4 samples.

Results

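The 9 cortical layer transcription factors examined were *Cux1*, *Cux2*, *Rorb*, *Fezf2*, *Tbr1*, *Neurod6*, *Bcl11b*, *Foxp2* and *Tle4*. They were chosen by gene symbol, and all 9 were found among the genes counted in the experiment, so 9 of 9 were analysed. The experiment was Visium spatial transcriptomics, in which each barcoded spot captures polyadenylated RNA from the few cells lying above it, of 4 fresh frozen brain sections with a thickness of 10 µm. All 4 sections carried the genotype *Nf1*+/-, that is, they came from animals heterozygous for a mutation of the gene for the RAS regulator neurofibromin, and the state of the other allele in single cells was not measured. No wild-type section was used here, so every comparison below is between places within these sections and none is between genotypes. The labels give neither age nor treatment. The number of mice behind the sections is not given, so n counts sections and no p-value measures the spread between mice. The study used these sections to compare focal excesses of oligodendrocyte precursor cells (OPCs) with the tissue around them.

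In the developing cortex, projection neurons acquire a laminar identity through transcription factors that act largely by repressing the programs of the other layers. The homeobox factors *Cux1* and *Cux2* and the nuclear receptor *Rorb* are textbook factors of the upper and middle layers, whereas *Fezf2* and its target *Bcl11b* mark neurons that project to the brainstem and spinal cord, and *Tbr1*, *Foxp2* and the corepressor *Tle4* mark neurons that project to the thalamus. *Neurod6* is a basic helix-loop-helix factor of cortical pyramidal neurons in general. Several of these genes are also used outside the cortex, and *Bcl11b* and *Foxp2* are well known in the projection neurons of the striatum.

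The files give each factor by an Ensembl identifier and a symbol, and the RefSeq gene table of GRCm38.p6 places the genes on 6 chromosomes. The upper-layer factors were *Cux1* (ENSMUSG00000029705) at chr5:136248135-136567590, *Cux2* (ENSMUSG00000042589) at chr5:121857962-122050415 and *Rorb* (ENSMUSG00000036192) at chr19:18930609-19111196. *Fezf2* and its target were *Fezf2* (ENSMUSG00000021743) at chr14:12338992-12346803 and *Bcl11b* (ENSMUSG00000048251) at chr12:107910403-108004145. The remaining factors were *Tbr1* (ENSMUSG00000035033) at chr2:61802863-61814114, *Foxp2* (ENSMUSG00000029563) at chr6:14901349-15441977, *Tle4* (ENSMUSG00000024642) at chr19:14448072-14598183 and *Neurod6* (ENSMUSG00000037984) at chr6:55677818-55681263.

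Promoter sequences are shown for 3 of the factors because they moved in opposite directions in the comparison of striatum with cortex described below. *Tbr1* and *Neurod6* fell most in striatal-marker spots, and *Bcl11b* had, of the factors with an entry in the promoter table, the largest rise there. Each stretch runs 5′ to 3′ on the strand of its gene, from 250 bases before to 50 bases after a RefSeq transcription start, in the build GRCm38.p6 (mm10), which is the build named in the submitters' processing notes. Capitals mark CANNTG, the E-box that basic helix-loop-helix factors such as *Neurod6* can bind; the motif reads the same on both strands. The *Tbr1* stretch lies on the plus strand at chr2:61804203-61804502, the *Neurod6* stretch on the minus strand at chr6:55681214-55681513 and the *Bcl11b* stretch on the minus strand at chr12:108003365-108003664.
Tbr1: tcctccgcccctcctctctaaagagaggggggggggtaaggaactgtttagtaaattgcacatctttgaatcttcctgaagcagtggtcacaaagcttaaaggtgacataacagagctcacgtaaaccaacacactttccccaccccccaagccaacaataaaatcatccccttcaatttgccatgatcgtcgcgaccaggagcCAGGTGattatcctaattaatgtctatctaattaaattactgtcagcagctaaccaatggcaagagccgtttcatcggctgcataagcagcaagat
Neurod6: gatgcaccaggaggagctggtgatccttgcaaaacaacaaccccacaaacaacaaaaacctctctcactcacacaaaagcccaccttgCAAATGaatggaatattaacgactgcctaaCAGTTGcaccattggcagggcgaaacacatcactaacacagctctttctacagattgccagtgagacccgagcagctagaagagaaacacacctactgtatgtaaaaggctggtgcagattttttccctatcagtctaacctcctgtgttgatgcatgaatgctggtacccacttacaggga
Bcl11b: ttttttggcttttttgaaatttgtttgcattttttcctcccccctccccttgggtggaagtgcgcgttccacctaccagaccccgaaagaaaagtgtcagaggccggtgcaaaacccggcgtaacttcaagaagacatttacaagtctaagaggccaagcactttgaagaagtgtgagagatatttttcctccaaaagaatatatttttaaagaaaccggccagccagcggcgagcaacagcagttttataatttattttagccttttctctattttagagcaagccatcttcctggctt
The *Tbr1* stretch held 1 E-box, the *Neurod6* stretch 2 and the *Bcl11b* stretch 0. A CCAAT box, searched on both strands, occurred 1 time in *Tbr1*, 1 time in *Neurod6* and 0 times in *Bcl11b*. Over all 32851 RefSeq promoters of this length, 72.3% held CANNTG and 37.4% held CCAAT. The 3 stretches had GC contents of 46%, 46.3% and 43%, against a median of 52.7% over all promoters. Of the 9 factors, 8 matched an entry in the promoter table, the exception being *Foxp2*.

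The sections held 1435 to 2359 spots and 19261710 to 37002379 unique molecular identifiers (UMIs, each counting 1 captured transcript), and 1431 to 2358 spots per section had at least 500 UMIs and were used. The median per spot was lowest in section 3, at 8862.5 UMIs, and highest in section 2, at 15296.5 UMIs. The factors were sparse at this depth, with a mean of 0.198 to 1.79 UMIs per spot over the 9 genes and 4 sections among spots with a UMI of *Slc17a7*, the vesicular glutamate transporter of cortical excitatory neurons. Therefore UMIs were summed over groups of spots in each section, and levels are given as CPM (the gene's UMIs divided by all UMIs of the summed group, times 1e+06). Spots were grouped by marker lists that contain none of the 9 factors, each spot going to the list with the highest score if that was at least 1. The other spots (646, 1006, 1043 and 640 in sections 1 to 4) joined no group. They held 43.3% to 48.2% of all UMIs and 54.2% to 61.5% of those of *Tbr1*, so the groups do not cover whole sections. A spot can hold several cells, so these are groups of spots and not cell types, and a lower level can come from fewer cells of a type or from less RNA per cell, which cannot be told apart.

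The groups differed in how well their markers carried them. The striatal-marker spots (254 to 654 per section) had a mean of 49.6 to 80.6 striatal-marker UMIs per spot. The upper-layer-marker spots (34 to 217 per section) had 12 to 22.8 UMIs per spot of their own 6 markers, and the deep-layer-marker spots (45 to 87 per section) had 8.27 to 12. In the deep group, mean levels of *Ccn2*, *Nxph4*, *Rprm* and *Hs3st4* were 194, 33.9, 313 and 148 CPM. Over whole sections they were 21.2, 2.68, 57.2 and 41.7 CPM. *Syt6* and *Deptor* were less raised, at 43.8 and 19.5 CPM against 32.2 and 10.4 CPM. The single deep layers were not told apart, so deep means rich in these markers together. The 34 upper-layer-marker spots of section 1 stood apart from those of the other sections, with a *Slc17a7* level of 491 CPM against 692 to 884 CPM and a level of the striatal gene *Ppp1r1b* of 466 CPM against 149.5 to 244 CPM. The spots picked by hippocampal markers held only 1.88 to 2.56 marker UMIs each, with *Dsp* at 0 UMIs in section 3. Those picked by subcortical glutamatergic markers held 4.69 to 6.65, led in sections 1 to 3 by *Prkcd* rather than *Slc17a6*. Neither of the last groups is treated as a brain region here.

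All 9 factors were called as different between the upper-layer-marker and the deep-layer-marker spots. *Cux1*, *Cux2* and *Rorb* were lower in the deep group, and *Fezf2*, *Tbr1*, *Neurod6*, *Bcl11b*, *Foxp2* and *Tle4* were higher (edgeR quasi-likelihood test with section as a block, Benjamini-Hochberg adjusted p under 0.05 over 11350 genes). Over all genes tested, 9.46% were called in this comparison, 4.88% as higher and 4.58% as lower. The median log2 fold change of the 9 factors was 0.89, against -0.01 over all genes. The section levels of *Bcl11b* and *Foxp2* overlapped between the groups, and the calls of *Tbr1*, *Neurod6* and *Foxp2* were lost in some alternatives, as given below. All 6 marker groups entered a single fit, so each SE and p-value rests on a spread estimated over all of these groups. They do not measure the spread of a factor's own section ratios alone.

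*Cux1*, a homeobox repressor that shapes the dendrites of upper-layer neurons, was counted at 89.5, 100.4, 87.3 and 139 CPM in the upper-layer-marker spots of sections 1 to 4. In the deep-layer-marker spots it was counted at 44.5, 44.1, 51.4 and 33.5 CPM. Every upper value exceeded every deep value, and the fitted log2 fold change of deep over upper was -1.24 ± 0.15 (SE, n = 4 sections, edgeR adjusted p = 5.22e-07). Its paralog *Cux2* was counted at 38.1, 67.7, 57.6 and 85.4 CPM in the upper group and at 14.6, 20.5, 20.6 and 26.5 CPM in the deep group. The groups did not overlap for *Cux2* either, and section 1 had the lowest level in both (log2 fold change -1.64 ± 0.20, edgeR adjusted p = 4.77e-07). *Rorb*, a nuclear receptor of the layer that receives thalamic input, was counted at 36.5, 32.4, 41.0 and 99.5 CPM in the upper group. Its deep levels were 15.3, 18.5, 19.4 and 17.7 CPM. Section 4 was high in the upper group, the deep levels were close together, and the groups did not overlap (log2 fold change -1.46 ± 0.27, edgeR adjusted p = 0.000252).

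*Fezf2*, a zinc finger repressor that specifies neurons projecting to the spinal cord, had the largest fitted increase among the 9 factors over all 4 sections. Its levels were 1.66, 13.7, 10.7 and 5.34 CPM in the upper group and 45.9, 28.7, 35.4 and 42.4 CPM in the deep group. The groups did not overlap (log2 fold change 2.14 ± 0.32, edgeR adjusted p = 2.02e-05). Their distance varied, with a log2 ratio of 1.09 in section 2 and 4.22 in section 1, where the upper value rested on 1 UMI. The log2 fold change was 1.68 without section 1 and 2.86 without section 2, and without section 1 that of *Foxp2* was the larger one, at 2.29. *Tle4*, a Groucho family corepressor, was counted at 24.9, 29.4, 26.1 and 21.4 CPM in the upper group and at 73.1, 63.6, 80.0 and 106 CPM in the deep group. Its groups did not overlap, and its adjusted p was the lowest of the 9 factors (log2 fold change 1.55 ± 0.15, edgeR adjusted p = 7.23e-09).

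*Tbr1*, a T-box factor needed for neurons that project to the thalamus, was abundant in both cortical groups. It was counted at 92.8, 113, 138 and 139 CPM in the upper group and at 189, 193, 179 and 226 CPM in the deep group. *Neurod6* behaved in the same way, with 16.6, 36.6, 41.0 and 45.1 CPM in the upper group and 60.5, 53.4, 72.0 and 74.1 CPM in the deep group. Neither gene had overlapping groups, and their log2 fold changes were the smallest called, at 0.75 ± 0.18 (edgeR adjusted p = 0.00572) for *Tbr1* and 0.89 ± 0.20 (edgeR adjusted p = 0.00325) for *Neurod6*. Without the block for section, neither passed (edgeR adjusted p = 0.195 and 0.133), and *Tbr1* also missed the threshold in DESeq2 (adjusted p = 0.0540).

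For *Bcl11b* and *Foxp2*, section 1 differed from the other sections. *Bcl11b*, a zinc finger factor that acts downstream of *Fezf2*, was counted at 63.0, 36.8, 29.7 and 17.0 CPM in the upper group and at 61.8, 92.4, 76.6 and 61.8 CPM in the deep group. The levels of section 1 were nearly the same in both groups, so the groups overlapped, while in the other 3 sections the deep level was clearly the higher one (log2 fold change 1.17 ± 0.20, edgeR adjusted p = 0.000101). *Foxp2*, a forkhead factor known for its part in vocal learning, was counted at 29.8, 6.47, 5.94 and 2.43 CPM in the upper group. Its deep levels were 17.9, 24.6, 19.4 and 37.1 CPM, higher in sections 2, 3 and 4 and lower in section 1 (log2 fold change 1.73 ± 0.36, edgeR adjusted p = 0.00109). The log2 ratios of sections 1 to 4 were -0.04, 1.33, 1.36 and 1.86 for *Bcl11b* and -0.75, 1.94, 1.68 and 3.83 for *Foxp2*. This spread is wider than the fitted SEs convey, and the 3.83 of *Foxp2* rested on 5 UMIs in the upper group and 21 in the deep group. The upper group of section 1, which sets both exceptions, is the one with the raised *Ppp1r1b* level given above, and the part of striatal RNA in these levels was not tested. Without section 1 the log2 fold changes were 1.42 for *Bcl11b* and 2.29 for *Foxp2*, and without section 2 *Foxp2* missed the threshold (edgeR adjusted p = 0.0660). When both cortical groups were held to spots with at least 10 *Slc17a7* UMIs, an alternative added after the data were seen, the same 6 factors were higher and the same 3 lower, with *Bcl11b* at 1.45 and *Foxp2* at 2.43.

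Other cell types moved with this comparison. The summed level of the 6 myelin markers, among them *Mbp*, *Mog* and *Mag*, was 1231 to 1641 CPM in the upper group and 2918 to 3310 CPM in the deep group. *Slc17a7* was itself higher in the deep group (log2 fold change 0.62 ± 0.20, edgeR adjusted p = 0.0440), and *Gad1*, the GABA-synthesizing enzyme of inhibitory neurons, was lower (log2 fold change -0.89 ± 0.10, edgeR adjusted p = 3.02e-07). Their part in the changes of the factors was not tested.

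**Figure D1:**
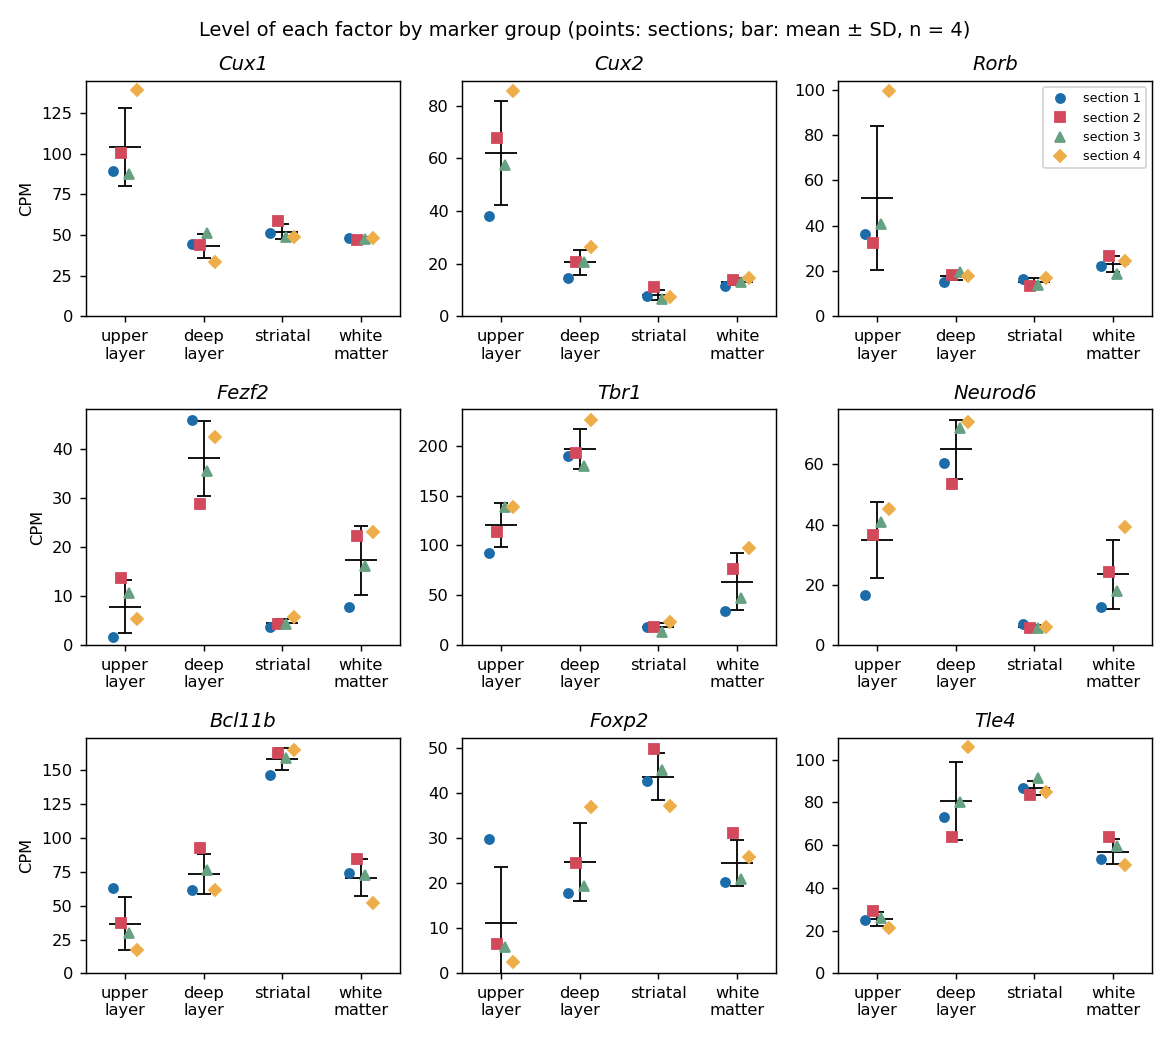
Level of each factor in CPM (vertical axes, starting at 0) in upper-layer-marker, deep-layer-marker, striatal-marker and white-matter-marker spots. Colored points are the 4 sections and black bars the mean ± SD (n = 4 sections; a bar reaching below 0 is clipped at the axis). *Cux1*, *Cux2* and *Rorb* peak in the upper group, *Fezf2*, *Tbr1* and *Neurod6* in the deep group and *Bcl11b* and *Foxp2* in the striatal group, where *Bcl11b* lies between 146 and 164 CPM, and the striatal and deep levels of *Tle4* overlap.

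To describe the change as a gradient, the spots with at least 10 *Slc17a7* UMIs outside the striatal-marker group (288, 808, 368 and 416 spots in sections 1 to 4) were ranked by deep-marker minus upper-marker score and divided into 5 bins of equal size in each section, from bin 1 (upper) to bin 5 (deep). From bin 1 to bin 5, *Cux1* went from 103 ± 21.1 to 43.9 ± 5.73 CPM (mean ± SD, n = 4 sections), and *Cux2* went from 71.3 ± 13.4 to 15.8 ± 3.001 CPM. *Rorb* went from 58.7 ± 29.2 to 20.2 ± 4.90 CPM. These 3 factors were lower in bin 5 than in bin 1 in 4 of 4 sections, and *Cux2* had the steepest slope of them, with a mean log2 ratio of -2.17 ± 0.32 (SD, n = 4).

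The 6 factors that were higher in the deep group did not share 1 profile. *Fezf2* stood at 9.69 CPM in bin 1 and at 29.7, 41.0, 38.8 and 42.7 CPM in bins 2 to 5, so most of its increase lay between bins 1 and 3. The mean of *Foxp2* instead went up at every step, from 4.68 through 7.43, 9.39 and 15.4 to 24.0 CPM. Its bin 1 rested on only 10, 22, 4 and 5 UMIs in sections 1 to 4. In section 1 it fell from 7.82 to 7.31 CPM between bins 1 and 2, and in section 4 from 8.19 to 5.37 CPM between bins 2 and 3. *Tle4* stayed between 28.5 and 34.3 CPM in bins 1 to 3 and then reached 54.9 and 69.1 CPM. *Bcl11b* went up steadily from 28.4 ± 9.96 to 65.4 ± 12.5 CPM. *Tbr1* and *Neurod6* had the shallowest slopes, with mean log2 ratios of bin 5 over bin 1 of 0.58 ± 0.14 and 0.56 ± 0.13 (SD, n = 4 sections), and *Neurod6* had its highest mean in bin 4. All 6 were higher in bin 5 than in bin 1 in 4 of 4 sections, and *Foxp2* had the largest mean log2 ratio, at 2.44 ± 0.90. The myelin gene *Mbp* went from 668 ± 28.7 to 1610 ± 223 CPM along the same bins, and the part of white matter in the slopes was not tested. *Slc17a7* itself went from 832 ± 61.6 to 1115 ± 152 CPM, and its part in the slopes, among them the shallow ones of *Tbr1* and *Neurod6*, was not tested either. Because the bins come from the spots' own counts and not from measured depth, they order spots by layer markers and not by distance from the pial surface. The single deep layers are not told apart along them, and bin 5 holds the spots richest in the deep markers relative to the upper ones.

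**Figure D2:**
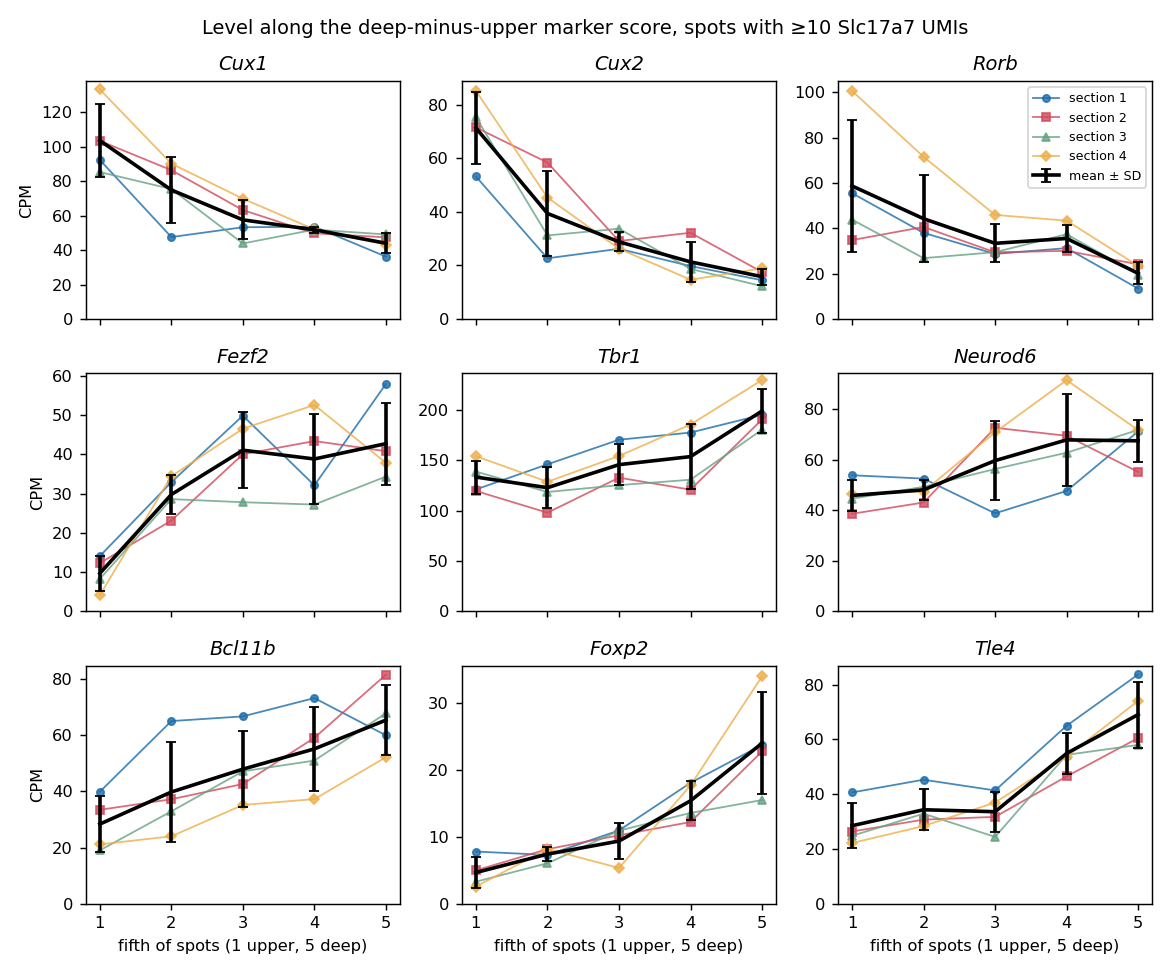
Level of each factor in CPM (vertical axes, starting at 0) over 5 equal groups of spots, from upper (1) to deep (5). The spots had at least 10 *Slc17a7* UMIs, lay outside the striatal-marker group and were ordered by layer markers. Thin colored lines are the 4 sections and the thick black line the mean ± SD. In the mean line, *Cux1*, *Cux2* and *Rorb* are highest in bin 1 and lowest in bin 5, *Fezf2* levels off from bin 3, and *Foxp2* and *Tle4* have their largest steps into bins 4 and 5. Single sections depart from this, such as *Rorb* in section 2, at 34.8 CPM in bin 1 and 40.6 CPM in bin 2.

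Against the 2 cortical groups, the striatal-marker spots divided the factors differently. *Bcl11b*, *Foxp2* and *Tle4* were higher in the striatal-marker spots, *Tbr1*, *Neurod6*, *Fezf2*, *Cux2* and *Rorb* were lower, and *Cux1* was not called (edgeR, mean of the upper and deep coefficients as the cortical level). Of the 11350 genes, 40.5% were called here, 20.5% as higher and 20% as lower, so the count of 8 called factors says less than in the comparison of layers, and the sizes matter more. The median over the 9 factors was -0.78, against 0.02 over all genes.

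*Bcl11b*, which is needed for the maturation of striatal medium spiny neurons, was counted at 146, 162, 159 and 164 CPM in the striatal-marker spots of sections 1 to 4. All 4 values lay above the highest cortical value, 92.4 CPM (log2 fold change 1.89 ± 0.12, edgeR adjusted p = 2.13e-14). *Foxp2* was counted at 42.7, 49.7, 45.2 and 37.2 CPM in the striatal-marker spots. Its lowest striatal value, in section 4, was just above the highest cortical value, the 37.1 CPM of the deep group of the same section (log2 fold change 1.96 ± 0.19, edgeR adjusted p = 3.55e-10). *Tle4* was counted at 86.7, 83.6, 91.4 and 85.0 CPM in the striatal-marker spots, above all 4 upper values but within the range of the deep group, 63.6 to 106 CPM. Its log2 fold change of 1.10 ± 0.09 (edgeR adjusted p = 2.91e-11) is against the mean of the upper and deep groups, and the difference between the striatal and deep groups alone was not tested.

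*Tbr1* was counted at 18.4, 17.9, 13.4 and 22.9 CPM in the striatal-marker spots, and *Neurod6* at 6.995, 5.64, 5.72 and 6.04 CPM. Both lay below every cortical value, and theirs were the largest falls among the 9 factors, with log2 fold changes of -2.93 ± 0.17 (edgeR adjusted p = 4.40e-15) and -2.81 ± 0.19 (edgeR adjusted p = 8.23e-14). *Slc17a7*, which marks the cortical excitatory neurons themselves, had a log2 fold change of -3.15 ± 0.20 (edgeR adjusted p = 2.63e-14). *Cux2* was counted at 7.68, 11.1, 6.78 and 7.49 CPM, also below every cortical value (log2 fold change -1.89 ± 0.17, edgeR adjusted p = 5.78e-11). *Fezf2* was counted at 3.75, 4.23, 4.24 and 5.79 CPM, far below the deep group but within the range of the upper group (log2 fold change -1.99 ± 0.27, edgeR adjusted p = 3.76e-07). *Rorb* was counted at 16.5, 13.4, 13.8 and 17.1 CPM, below the upper group but overlapping with the deep one (log2 fold change -0.78 ± 0.20, edgeR adjusted p = 0.00174).

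*Cux1* was the factor that separated the striatum least from the cortex. In the striatal-marker spots it was counted at 51.5, 58.6, 48.5 and 49.0 CPM, below every upper value and overlapping with the deep values of 33.5 to 51.4 CPM. Its log2 fold change was -0.22 ± 0.11 (edgeR adjusted p = 0.0992), and with total UMIs in place of TMM as the scale it became -0.39 and passed as lower (edgeR adjusted p = 0.00575). That scaling moved the median of all genes from 0.02 to -0.14 and the split of called genes from 2330 higher and 2267 lower to 1265 higher and 3637 lower, while *Bcl11b*, *Foxp2* and *Tle4* stayed called as higher. The fits with a score threshold of 0.5 or 2 and with scores divided by their SD also called *Cux1* lower (edgeR adjusted p = 0.0447, 0.0396 and 0.0245), and *Rorb* missed the threshold at a score of 2 (edgeR adjusted p = 0.0942).

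The striatal levels were also taken from spots in which no UMI of the cortical marker was counted, which at this depth does not mean that its RNA was absent. In striatal-marker spots without any *Slc17a7* UMI (96, 148, 223 and 68 spots in sections 1 to 4, of 336, 654, 431 and 254), an alternative added after the data were seen, *Bcl11b* was counted at 154 ± 12.5 CPM (mean ± SD, n = 4 sections), *Foxp2* at 44.8 ± 3.37 CPM and *Tle4* at 86.2 ± 6.83 CPM. *Cux1* stood at 51.0 ± 7.06 CPM in the same spots and *Rorb* at 14.4 ± 1.90 CPM. *Tbr1* was still counted there at 15.3 ± 4.50 CPM, *Neurod6* at 5.23 ± 1.37 CPM and *Fezf2* at 3.24 ± 1.68 CPM, and *Cux2* at 8.86 ± 1.75 CPM. The same 3 factors were called higher and the same 5 lower against cortical spots with at least 10 *Slc17a7* UMIs. Because both sides were chosen by *Slc17a7* counts, falls of genes that go with *Slc17a7* are partly set by the choice of spots. This alternative is thus no separate check of the 5 lower calls.

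The share of each gene's UMIs that fell in striatal-marker spots was highest for the 3 factors called higher there. These spots held 24.2% ± 3.47 of all UMIs (mean ± SD, n = 4 sections). They held 48.8% ± 6.03 of the UMIs of *Bcl11b*, 45.7% ± 6.24 of those of *Foxp2* and 38.3% ± 4.64 of those of *Tle4*. The share of *Cux1* was 21.0% ± 4.90 and that of *Rorb* 13.9% ± 4.34, and the shares of *Cux2*, *Fezf2*, *Tbr1* and *Neurod6* lay between 5.29% and 8.64%. After every spot was thinned to 5000 UMIs, which left out 72 to 427 shallower spots per section, 53.2% ± 1.00 of striatal-marker spots held a *Bcl11b* UMI (84.8% ± 5.91 before thinning), against 30.0% ± 5.19 of deep-layer-marker and 17.4% ± 11.3 of upper-layer-marker spots. For *Tbr1* the thinned shares ran the other way, at 9.40% ± 3.18 of striatal-marker spots (23.9% ± 6.75 before thinning), 61.3% ± 1.93 of deep-layer-marker and 41.1% ± 7.55 of upper-layer-marker spots.

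**Figure D3:**
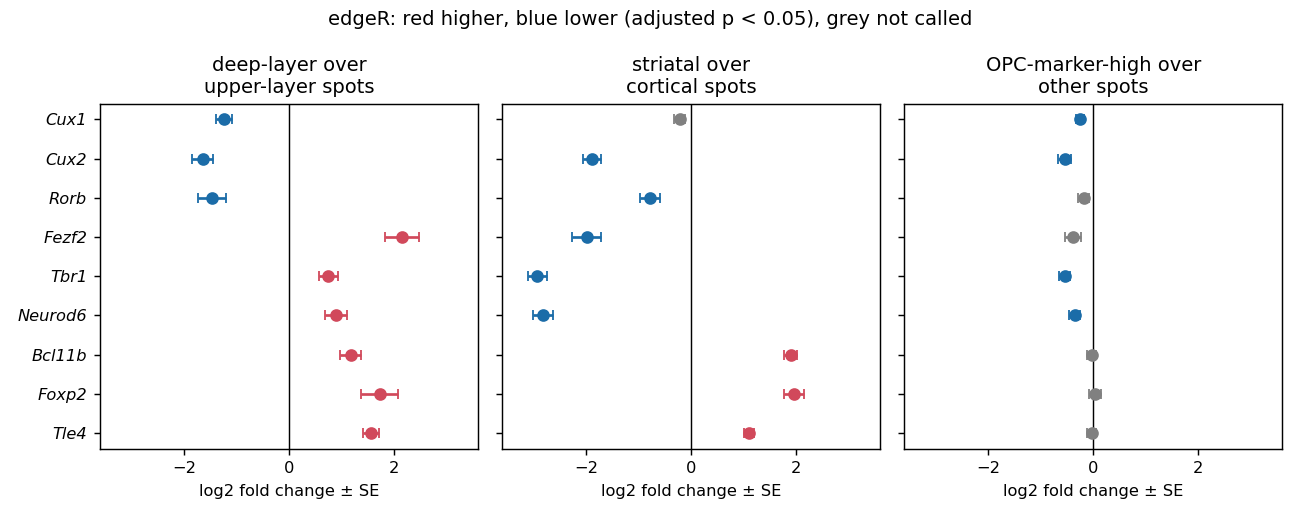
Fitted log2 fold change ± SE (horizontal axes) of each factor for deep-layer over upper-layer spots, striatal over cortical spots and OPC-marker-high over other spots. Red points passed as higher, blue points as lower and grey points did not pass. *Bcl11b*, *Foxp2* and *Tle4* are higher in both of the first comparisons, *Cux1* moves between layers by -1.24 but between striatum and cortex by -0.22, and no factor is higher in the OPC-marker-high spots.

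The white-matter-marker spots (283 to 454 per section) held neither the highest nor the lowest mean level of any factor among these 6 groups. *Bcl11b* was counted there at 70.7 ± 13.6 CPM and *Tle4* at 57.0 ± 5.96 CPM (mean ± SD, n = 4 sections). *Cux1* varied little in this group, from 47.1 to 48.5 CPM. *Tbr1* (34.5 to 97.4 CPM), *Neurod6* (12.5 to 39.2 CPM) and *Fezf2* (7.79 to 23.0 CPM) were lowest in section 1 and highest in section 4. Over the 6 groups ordered by mean level, neighbors in the order mostly overlapped in their ranges. The exceptions for the 3 factors of the upper layers were *Cux1* between the striatal and white matter groups and *Cux2* between the white matter and striatal groups, and *Rorb* had none. *Bcl11b* and *Foxp2* were separated from the next group at the top, in the striatum, and *Tbr1* at the top, in the deep group, and again above its lowest, striatal level. *Fezf2* was separated between the deep and white matter groups, *Tle4* between the white matter and subcortical groups and *Neurod6* between the white matter and striatal groups.

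In the small groups picked by hippocampal and subcortical markers, few factors were called. Against the cortical groups, *Fezf2* was higher (log2 fold change 0.98 ± 0.29, edgeR adjusted p = 0.0316) and *Tbr1* lower (-1.15 ± 0.21, edgeR adjusted p = 0.000611) in the hippocampal-marker spots, where 9.05% of all genes were called, 4.92% as higher and 4.13% as lower. *Fezf2* lost its call without section 2, 3 or 4 (edgeR adjusted p = 0.0514, 0.180 and 0.301), and its 4 levels there ran from 9.06 to 61.4 CPM. Those levels overlapped with the deep group, at a mean of 40.2 ± 22.2 CPM against 38.1 ± 7.60 CPM (SD, n = 4 sections). The call is against the mean of the upper and deep groups, and the difference from the deep group alone was not tested. In the subcortical-marker spots, where 12.7% of all genes were called (6.47% as higher and 6.24% as lower), *Tbr1* (-1.46 ± 0.21), *Neurod6* (-1.08 ± 0.23) and *Cux2* (-0.67 ± 0.20) were lower and no factor was higher (edgeR adjusted p = 4.66e-06, 0.00117 and 0.0247), and *Cux2* lost its call without section 1, 2 or 3 (edgeR adjusted p = 0.0814, 0.0956 and 0.0986). Given how few marker UMIs chose these spots, the values describe the spots and no named region.

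The factors were then compared across single spots. Among the 5650 spots with at least 1 *Slc17a7* UMI, Pearson correlations between residuals from each spot's depth were computed in each section and averaged over the 4 sections, and the factors were ordered by the leading axis of the mean matrix. The correlated spots share a library and differ in depth, and with under 2 UMIs per spot for every factor all coefficients are low, so they are given as a description. The strongest pairs were *Tbr1* with *Neurod6* (r = 0.261, 0.196 to 0.295 over sections), *Fezf2* with *Neurod6* (0.201), *Bcl11b* with *Tle4* (0.198), *Fezf2* with *Tbr1* (0.165) and *Bcl11b* with *Foxp2* (0.154). *Bcl11b* and *Tbr1* were opposed (-0.19). The axis placed *Tbr1*, *Neurod6*, *Rorb*, *Cux2*, *Fezf2* and *Cux1* on 1 side and *Tle4*, *Foxp2* and *Bcl11b* on the other, and each section left out in turn gave the same sides. The second side holds the 3 factors called higher in the striatal-marker spots, and the first side the 5 called lower and *Cux1*.

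In 3 smaller sets of spots, the order became one of layers. Only the last of these sets was chosen by cortical layer markers, with no limit on *Slc17a7*, and the others can hold spots outside the cortex. Because layer markers chose the last set, its sides partly repeat the comparison of deep with upper spots and are no separate support. In the 1881 spots with at least 10 *Slc17a7* UMIs, *Cux1*, *Cux2* and *Rorb* formed 1 side and the other 6 factors the opposite side, with *Cux2* (0.46) and *Fezf2* (-0.39) at the ends of the axis. The same sides were found among the 4510 *Slc17a7*-positive spots outside the striatal-marker group and among the 787 upper-layer-marker and deep-layer-marker spots. The strongest pairs differed between these settings. With at least 10 *Slc17a7* UMIs they were *Cux1* with *Cux2* (r = 0.215, 0.165 to 0.31 over sections) and *Cux1* with *Rorb* (0.175), without striatal-marker spots *Tbr1* with *Neurod6* (0.196) and *Fezf2* with *Neurod6* (0.165), and in the upper-layer-marker and deep-layer-marker spots *Cux1* with *Rorb* (0.23) and *Fezf2* with *Tle4* (0.197). *Cux2* and *Fezf2* were opposed in all 3 settings, at -0.202, -0.103 and -0.16. The correlation of *Bcl11b* with *Tbr1*, -0.193 over all *Slc17a7*-positive spots, was 0.0816, -0.0426 and 0.0853 in the same 3 settings, and that of *Bcl11b* with *Foxp2*, 0.154 over all, was 0.0194, 0.0936 and 0.116. Of the 4 sections, *Bcl11b* with *Tbr1* was positive in 4, 1 and 2 in these settings, and *Bcl11b* with *Foxp2* in 3, 4 and 4. In the last setting, *Bcl11b* with *Tbr1* ran from -0.0535 to 0.265 over sections.

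**Figure D4:**
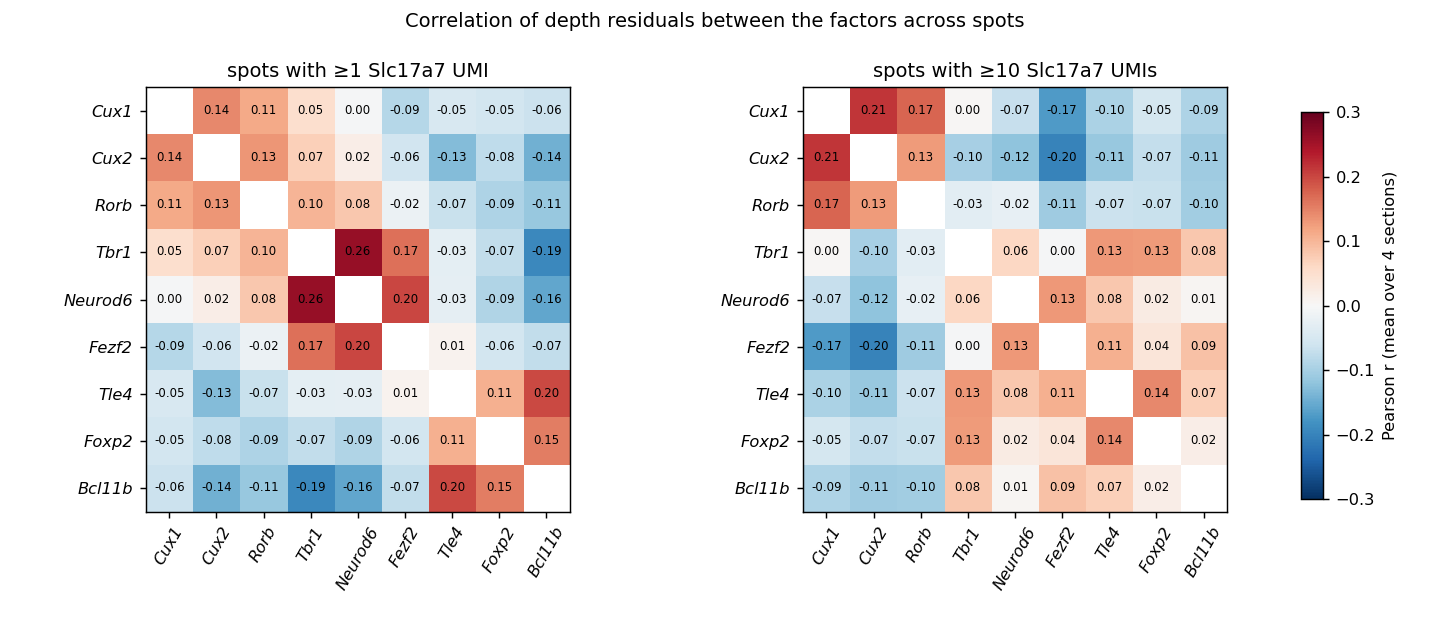
Pearson correlation of depth residuals between each pair of factors (color and number, mean over 4 sections) across spots with at least 1 (left) or at least 10 (right) *Slc17a7* UMIs. On the left, *Bcl11b*, *Foxp2* and *Tle4* correlate positively with each other. *Bcl11b* is opposed to *Tbr1* (-0.19) and *Neurod6* (-0.16), *Foxp2* less so (-0.07 and -0.09), and *Tle4* is near 0 with both (-0.03 each). On the right, *Cux1*, *Cux2* and *Rorb* form a block of positive values. Pairs of the other 6 factors run from -0.004 (*Fezf2* with *Tbr1*) to 0.14 (*Foxp2* with *Tle4*), so some of them do not correlate.

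The genes most like each factor were sought among the 6991 genes with at least 20 CPM, by the same residual correlation across the 5650 spots averaged over 4 sections. The 3 closest genes of *Bcl11b* included *Ppp1r1b* (r = 0.52) and *Pde1b* (0.50), and those of *Foxp2* were *Tac1* (0.28), *Ppp1r1b* (0.27) and *Rgs9* (0.25). Those of *Tle4* included *Pcp4* (0.30) and *Ppp1r1b* (0.26). *Tbr1* was closest to *Slc17a7* (0.54), *Stmn1* (0.50) and *Snap25* (0.49), and *Neurod6* to *Stmn1* (0.38), *Cck* (0.35) and *Basp1* (0.35). *Fezf2* was closest to *Vxn* (0.30), *Galnt9* (0.28) and *Dkk3* (0.27). *Camk2n1* was among the 3 closest genes of *Cux1* (0.26), *Cux2* (0.33) and *Rorb* (0.30), and *Kcnab3* of *Cux1* (0.21) and *Rorb* (0.32), joined by *Nptxr* for *Cux2* (0.29) and *Nrsn1* for *Rorb* (0.26). *Ppp1r1b*, itself a marker that chose the striatal-marker spots, was among the 3 closest genes of each of the 3 factors called higher in those spots. The 5650 spots include striatal-marker spots, so this largely repeats the striatal comparison and is no separate support for it.

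A list of 29 other regulators of cortical projection neurons and paralogs of the factors, of which 28 were tested, showed the same comparisons in a wider set. Between layers, 5 were higher and 11 lower in the deep group, where 9.46% of all genes were called. The largest rises were those of *Nr4a2*, a nuclear receptor of subplate neurons (log2 fold change 2.27 ± 0.28, edgeR adjusted p = 7.65e-07), and *Zfpm2*, a zinc finger cofactor (2.16 ± 0.29, edgeR adjusted p = 2.25e-06). The largest falls were those of the basic helix-loop-helix genes *Neurod1* (-1.76 ± 0.36, edgeR adjusted p = 0.000944) and *Bhlhe22* (-1.36 ± 0.23, edgeR adjusted p = 9.28e-05). Against the cortex, 5 were higher and 20 lower in the striatal-marker spots, where 40.5% of all genes were called. The rises were led by *Foxp1*, a paralog of *Foxp2* (1.68 ± 0.09, edgeR adjusted p = 3.77e-16), and *Pou3f1* (1.54 ± 0.10, edgeR adjusted p = 8.23e-14). The falls were led by *Neurod2*, a paralog of *Neurod6* (-3.12 ± 0.20, edgeR adjusted p = 2.78e-14), and *Bhlhe22* (-2.79 ± 0.21, edgeR adjusted p = 1.50e-12). In the hippocampal-marker spots, where 9.05% of all genes were called, 1 was higher (*Etv1*) and 4 were lower, with *Neurod2* among them. In the subcortical-marker spots, where 12.7% of all genes were called, 0 were higher and 6 lower, again with *Neurod2* among them.

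Finally, the factors were compared between the 10% of spots with the highest score for 8 OPC markers (*C1ql1*, *Cacng4*, *Cspg4*, *Lhfpl3*, *Matn4*, *Neu4*, *Pcdh15* and *Pdgfra*) and the other spots of each section. The outlines of the OPC excesses were not used here. This grouping by counts takes 10% of the spots of every section by its definition, and how far these spots lie in such excesses was not tested. *Tbr1* was counted at 23.4, 60.7, 47.3 and 90.9 CPM in the OPC-marker-high spots of sections 1 to 4 and at 63.2, 74.7, 80.6 and 104 CPM in the other spots. It was lower in 4 of 4 sections, most of all in section 1 (log2 fold change -0.55 ± 0.11, edgeR adjusted p = 0.00120). *Cux2* was counted at 14.5, 23.6, 13.1 and 14.6 CPM in the OPC-marker-high spots and at 17.3, 29.7, 22.0 and 30.6 CPM in the other spots, again lower in 4 of 4 (-0.55 ± 0.13, edgeR adjusted p = 0.00653). *Cux1* (-0.26 ± 0.07, edgeR adjusted p = 0.0322) and *Neurod6* (-0.36 ± 0.11, edgeR adjusted p = 0.0487) also passed as lower, in 4 of 4 sections each, and no factor passed as higher, where 5.88% of 14259 genes were called, 2.79% as higher and 3.09% as lower. *Bcl11b*, *Foxp2* and *Tle4* had log2 fold changes of -0.03 ± 0.09, 0.03 ± 0.11 and -0.03 ± 0.08.

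The falls in OPC-marker-high spots came with a lower level of *Slc17a7* (-0.72 ± 0.09, edgeR adjusted p = 1.58e-06), and the part of a lower share of cortical neurons in them was not tested. The 4 calls were lost in DESeq2 (adjusted p = 0.299 for *Tbr1*, 0.0579 for *Cux2*, 0.268 for *Cux1* and 0.253 for *Neurod6*) and without the block for section (edgeR adjusted p of 0.745 to 0.847). Leaving out single sections kept *Tbr1*, while *Cux1* was lost without section 2, 3 or 4 (edgeR adjusted p = 0.120, 0.0639 and 0.194), *Cux2* without section 4 (0.0851) and *Neurod6* without section 1, 2 or 3 (0.184, 0.169 and 0.105). Of the 29 other regulators, 0 were higher and 9 lower in the OPC-marker-high spots, where 5.88% of all genes were called. The largest falls were those of *Neurod1* (-0.92 ± 0.23, edgeR adjusted p = 0.0105) and *Emx1* (-0.67 ± 0.17, edgeR adjusted p = 0.0178).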

How the data were processed

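The authors processed the reads of the 4 Visium sections with Space Ranger against mm10, per the labels and the processing notes. The headers of the count matrices give its version as 1.3.1. The UMI counts of every gene in each spot were deposited with no normalization. Intronic and strand settings are not given in the sources used here. Spots with at least 500 UMIs were used. For each of 6 marker lists (upper layers *Lamp5*, *Rasgrf2*, *Otof*, *Stard8*, *Scnn1a*, *Rspo1*; deep layers *Hs3st4*, *Rprm*, *Syt6*, *Ccn2*, *Nxph4*, *Deptor*; striatum, 7 genes including *Ppp1r1b*, *Drd1*, *Drd2*, *Adora2a*, *Rgs9* and *Pde10a*; hippocampus *Spink8*, *Fibcd1*, *C1ql2*, *Tdo2*, *Dsp*, *Cabp7*; subcortical *Slc17a6*, *Prkcd*, *Ramp3*, *Tnnt1*, *Rgs16*, *Plekhg1*; and myelin), a spot's score was the mean Pearson residual of its markers given its depth (negative binomial, theta 10, held within 10 either way), and a spot joined its highest list if the score was at least 1. The striatal-marker spots held 49.2% of the UMIs of *Syt6*, 1 of the deep markers.

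Counts summed per section and group (at least 20 spots) were tested with edgeR 4.0.16 in R 4.3.3 (TMM scaling, low counts filtered with filterByExpr, a quasi-likelihood test blocked on section, and Benjamini-Hochberg adjustment across every gene tested). The 6 marker groups shared a single fit, and the OPC-marker-high comparison had its own. Counts of called genes leave out the marker genes. Spot groups were paired by section because they share 1 piece of tissue, and their deviations correlated at 0.134 to 0.537. On simulated counts with 200 genes changed by a log2 fold change of 1, 157 changed and 11 unchanged genes were called for deep over upper (11386 genes). The counts were 194 and 8 for striatal over cortical (11386 genes) and 177 and 3 for OPC-marker-high over other (14267 genes). The simulation held no differences between sections and none between groups beyond the changed genes, so it does not give the error rates of the real calls. Alternatives were DESeq2 1.42.0, total-UMI scaling, no filter, no block, each section left out, all spots, fits of only the groups compared, other score thresholds and scales, and other shares of OPC-marker-high spots. Counts of any 2 sections differed by more than sampling noise, with a chi-square of 13.6 to 51.8 per degree of freedom, and shared 427 to 1989 barcodes in pairs, which are fixed slide positions. The named genes were the 9 factors, the 2 largest rises and falls among other regulators, the 3 most similar genes and the markers, of which some are not reported here. The factors, lists and groups were chosen with earlier results of these data known.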

Additional observations from a re-analysis of the deposited data

Results flagged for a closer look

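Each factor's whole-section level and its log2 ratios in the 5 comparisons were searched for a section standing far from the other 3 by Dixon's criterion, and 5 of 54 values were picked out, against 2.7 by chance (about 1 in 20). *Rorb* was counted at 41.4 CPM over all of section 4, against 22.2, 23.8 and 24.8 CPM in sections 1 to 3, and section 4 also had the highest *Rorb* level in the upper-layer-marker spots. *Foxp2* had a log2 ratio of striatal over cortical spots of 0.85 in section 1, against 1.95, 2.02 and 1.89 in sections 2 to 4. Its log2 ratio of OPC-marker-high over other spots was -0.40 in section 4, against 0.09, 0.12 and 0.16 in sections 1 to 3. *Bcl11b* had a log2 ratio of OPC-marker-high over other spots of -0.57 in section 1, against 0.08, 0.18 and 0.17 in sections 2 to 4. *Tbr1* had a log2 ratio of hippocampal-marker over cortical spots of -2.43 in section 1, against -0.76, -0.95 and -0.87 in the others.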

How the results depend on the processing

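Over 567 values of single factors under the alternatives, 510 kept their direction and their side of the threshold, 31 lost and 12 gained a call, and 14 changed direction. Between layers the 9 factors kept their direction under all 14 alternatives, and 122 of 126 values kept their call. The score threshold of 2 gave no value for the hippocampal-marker and subcortical-marker comparisons. The cause of the changes below was not tested.

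Without the replicate block, the genes called went from 1074 to 650 between layers, from 1027 to 417 in hippocampal-marker spots, from 1442 to 833 in subcortical-marker spots and from 838 to 8 in OPC-marker-high spots, and the factors called as lower in the last went from 4 to 0 and those called as higher in hippocampal-marker spots from 1 to 0. *Tbr1* and *Neurod6* then lost their calls between layers and *Cux2* in subcortical-marker spots, and no factor changed its call in the striatal comparison. In OPC-marker-high spots, DESeq2 called 341 genes and 0 factors, and the top 5% of spots 379 genes and 2 factors. With each section left out in turn, the genes called ranged from 613 to 1033 between layers (613 without section 3, 663 without section 4 and 699 without section 2), from 297 to 892 in hippocampal-marker spots (297 without section 1 and 650 without section 3), from 706 to 1562 in subcortical-marker spots (706 without section 2 and 795 without section 3) and from 508 to 836 in OPC-marker-high spots (508 without section 2 and 529 without section 3). The factors called as lower then ranged from 2 to 3 in OPC-marker-high spots, and in hippocampal-marker spots from 1 to 2, with 0 to 1 called as higher. Hippocampal-marker spots had 2 factors lower with no filter or a score threshold of 0.5, 0 higher in a fit of only the groups compared, and 2 higher and 3 lower with scores divided by their SD.

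The *Cux2* side of the order held 6 factors in the main setting and 3 with at least 10 *Slc17a7* UMIs, without striatal-marker spots or in upper-layer-marker and deep-layer-marker spots only. The mean correlation within sides minus that between sides was 0.173. This difference fell to 0.108 without striatal-marker spots and to 0.0620 after thinning to 5000 UMIs, and was 0.160 to 0.185 with each section left out. In each setting the sides were taken from these same correlations, so a positive difference is largely set in advance and is no test of the order.

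Directions changed for these log2 fold changes, none of them called. In OPC-marker-high spots these were *Foxp2* with no filter (-0.0108) and with the top 5% (-0.209), and *Bcl11b* and *Tle4* with the top 20% (0.0433 and 0.0193). With each section left out, *Foxp2* ranged from -0.0298 to 0.106, *Bcl11b* from -0.0995 to 0.135 and *Tle4* from -0.114 to 0.0803. In hippocampal-marker spots it was *Tle4* (-0.35 in the main setting) with the score threshold of 0.5 (0.0524) and with scores divided by their SD (0.195). In subcortical-marker spots, with each section left out, *Foxp2* ranged from -0.595 to 0.0266, *Rorb* from -0.215 to 0.0542 and *Cux1* from -0.239 to 0.0151. Total-UMI scaling moved the share of called genes that were higher from 54.3% to 37.3% in hippocampal-marker spots, and no filter moved it from 47.5% to 29.6% in OPC-marker-high spots. The depth limits *Fezf2* in the upper group of section 1 (1 UMI), *Foxp2* in the upper group (18, 35, 10 and 5 UMIs in sections 1 to 4) and all correlations across spots. In striatal-marker spots without a *Slc17a7* UMI, *Fezf2* rested on 3 to 12 UMIs per section and *Neurod6* on 3 to 13.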
